A study of Mus musculus with 40 samples.

Results

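Heat shock proteins and their DnaJ cochaperones were examined in 2 leg muscles, gastrocnemius and quadriceps, of mice on a high fat diet (HFD) or a low fat diet (LFD). The members were all genes on the array whose symbol begins with Hspa, Hspb, Hspd, Hspe or Hsph, or with Dnaja, Dnajb or Dnajc and a number. This rule found 66 of 16475 probe sets, each of which stands for 1 gene. No probe set carried the name *Hspb1* or *Hspd1*, so these genes are absent here. Of these, 44 averaged a signal intensity above 20 and were tested, as part of 6479 probe sets tested in all. The other 22 had mean intensities between 2.78 and 15.5 and were not tested, among them *Dnajb6*, *Hspa2*, *Hspa14*, *Hspa4l* and *Dnajb11*. Signal intensity depends on the probes of a gene as well as on its mRNA, so levels of different genes are not set against each other here.

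The samples were 40 whole-muscle RNA extracts from 20 male mice of the strain labelled C56BL/6J. All mice received the LFD for 3 weeks from 9 weeks of age. They then received the HFD (10 mice) or stayed on the LFD (10 mice) for 8 weeks and were 20 weeks old at the end. Both diets contained palm oil, and the mice were fasted before dissection. By the mouse numbers of the labels, the gastrocnemius and the quadriceps of each mouse were measured on separate Affymetrix arrays, giving 4 groups of 10: gastrocnemius HFD, quadriceps HFD, gastrocnemius LFD and quadriceps LFD.

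Chaperones of the Hsp70 family bind unfolded stretches of other proteins and release them in cycles driven by ATP. DnaJ proteins, also called Hsp40, carry a J domain that stimulates the ATPase of Hsp70 and delivers substrates to it, whereas nucleotide exchange factors such as Hsp110 let Hsp70 exchange ADP for ATP. Small heat shock proteins hold unfolding proteins without using ATP, and several of them are abundant in striated muscle, where they associate with the sarcomere and the actin cytoskeleton. Some of these genes are switched on by heat shock factor 1 (Hsf1) when unfolded proteins accumulate, whereas others are expressed constitutively or belong to mitochondria or the endoplasmic reticulum.

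The 8 skeletal muscle markers (such as *Acta1*, *Ckm* and *Mb*) were high on every array, with summed intensities of 127202 to 141330. The muscle pieces differed in other cells and fibers. Of 6 slow-fiber genes, 5 passed the test as higher in the gastrocnemius in both diets, and their summed intensity was 6529 to 11307 in gastrocnemius HFD, 86.5 to 4837 in quadriceps HFD, 5294 to 12142 in gastrocnemius LFD and 163 to 6976 in quadriceps LFD. All 3 tested Schwann cell genes were higher in the gastrocnemius in both diets. Of 4 tendon genes, 2 were called as higher in the gastrocnemius of HFD mice and 1 in LFD mice, with median sums of 3203 in gastrocnemius HFD, 2354 in quadriceps HFD, 3121.5 in gastrocnemius LFD and 2408 in quadriceps LFD. Of 4 adipocyte genes, 1 was called as lower in HFD mice and 3 in LFD mice, with median sums of 727, 1438, 641 and 954 in the same order of groups. The 7 neutrophil markers summed to no more than 41.1 on every gastrocnemius array but exceeded 100 on 6 quadriceps HFD and 4 quadriceps LFD arrays, with a highest value of 12733. The 2 markers of red cell precursors reached at most 30.3 in gastrocnemius HFD, 89.2 in quadriceps HFD, 23.6 in gastrocnemius LFD and 88.4 in quadriceps LFD, and the 1 tested was not called. The part of these cells in the muscle differences below was not tested, other than by leaving out the arrays of high neutrophil markers. In whole-muscle RNA, fewer cells of a type and less mRNA per cell cannot be told apart.

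The first question was which chaperone genes differ between the muscles. A gene was called when its fold change exceeded 1.3 and its false discovery rate (FDR, the p-value adjusted over all 6479 tested probe sets) was under 0.05. In HFD mice, 2 of the 44 members were called. *Hspb7* was higher and *Hsph1* was lower in the gastrocnemius than in the quadriceps. In LFD mice 1 member was called, *Hsph1*, which was again lower in the gastrocnemius. Over all tested probe sets, 3.46% were called in HFD mice and 2.52% in LFD mice, so the members' shares of 4.55% and 2.27% were near the background. By direction, 1.91% of all probe sets were called as higher and 1.54% as lower in the gastrocnemius of HFD mice, and 1.1% as lower in LFD mice. By the FDR alone 3 members passed in each diet, against 6.62% of all probe sets in HFD mice and 5.22% in LFD mice. The median log2 fold change of the members was 0.02 in HFD mice and -0.03 in LFD mice, against -0.02 and -0.01 over all tested probe sets. Less than 1.1-fold separated the muscles for 30 of 44 members in HFD mice and 32 of 44 in LFD mice, against 4723 and 4712 of all 6479 tested probe sets.

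**Figure D1:**
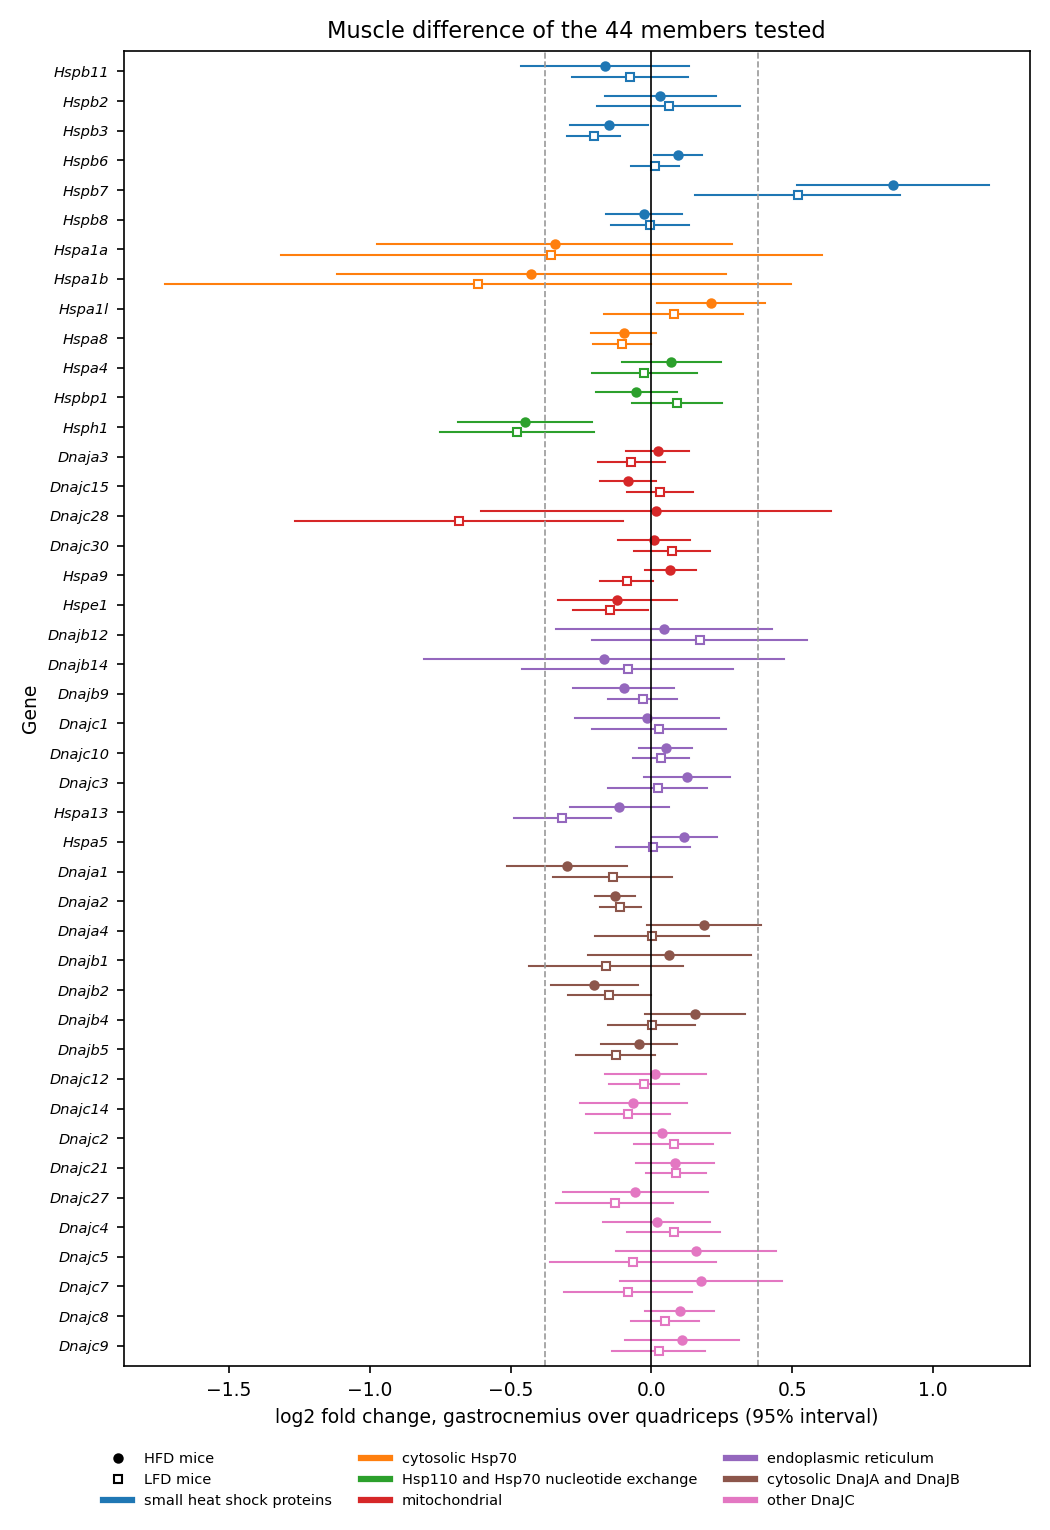
Log2 fold change of gastrocnemius over quadriceps (x axis) for the 44 tested members (y axis), with the 95% interval of the limma fit, in HFD mice (filled circles) and LFD mice (open squares, n = 10 mice each). Colours mark the role of the gene and dashed lines a 1.3-fold difference. *Hspb7* lies furthest to the right in both diets. *Hsph1* lies furthest to the left in HFD mice (-0.45), whereas in LFD mice (-0.48) *Dnajc28* (-0.68) and *Hspa1b* (-0.62) lie further left with wide intervals.

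*Hsph1* encodes Hsp110 (Hsp105), a large relative of Hsp70 that acts as its nucleotide exchange factor and helps to dissolve protein aggregates. Its signal intensity had a lowest, median and highest value of 413, 551 and 707 in gastrocnemius HFD, against 566, 729.5 and 1093 in quadriceps HFD. In LFD mice these values were 412, 532 and 693 in the gastrocnemius, against 518, 668 and 1019 in the quadriceps. The groups overlapped, but within a mouse the gastrocnemius was lower in 20 of 20 mice, with ratios of gastrocnemius to quadriceps between 0.567 and 0.893 in HFD mice and between 0.603 and 0.947 in LFD mice. Among the tested members no other gene was lower in every mouse. Of all 6479 tested probe sets, 45 (0.695%) were lower in the gastrocnemius of all 20 mice. The log2 fold change was -0.45 (SE 0.11, FDR 0.0188) in HFD mice and -0.48 (SE 0.13, FDR 0.0351) in LFD mice, that is, 1.37-fold and 1.39-fold lower in the gastrocnemius. The 95% interval of the ratio was 0.621 to 0.864 in HFD mice and 0.594 to 0.867 in LFD mice.

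The call of *Hsph1* in LFD mice was close to its threshold. It was lost when mouse 147, 148, 153, 154, 155, 156 or 159 was left out, although the log2 fold change stayed between -0.52 and -0.45 without any single LFD mouse. A mouse block sets the 2 muscles of an animal against each other. With the mouse as a fixed block the FDR was 0.000738 in LFD mice and 0.00102 in HFD mice, at the same fold changes. With the mouse as a random block it was 0.00178 in LFD mice. In HFD mice it was then 0.0192, close to the value without a block. Values within a mouse and with these blocks rest on the labelled mouse numbers. Over all tested probe sets the muscles of 1 HFD mouse number correlated no higher than those of different numbers (median -0.07, against -0.01). In LFD mice these medians were 0.39 and -0.05. Without the 10 quadriceps arrays of high neutrophil markers, a choice made after seeing the data, *Hsph1* was no longer called in either diet, with log2 fold changes of -0.45 (FDR 0.132) in HFD mice and -0.50 (FDR 0.0642) in LFD mice. *Hsph1* also varied with the slow-fiber genes within the gastrocnemius. Over the 20 mice, with both taken as deviations from the mean of the diet, its correlation with the summed slow-fiber genes was r = -0.69 (permutation p = 0.00138, adjusted p = 0.0386 over 56 such relations, Spearman rho = -0.71, permutation p = 0.00103, adjusted p = 0.0515). It was -0.64 within HFD mice, -0.72 within LFD mice and -0.62 without the 2 mice with the most extreme slow-fiber signal. In the quadriceps this correlation was -0.22 (permutation p = 0.354, adjusted p = 0.583, rho = -0.29, permutation p = 0.227, adjusted p = 0.455), and it was 0.18 within HFD mice and -0.62 within LFD mice. There *Hsph1* fell instead with the Schwann cell genes (r = -0.72, permutation p = 0.00024, adjusted p = 0.0134, rho = -0.66, permutation p = 0.00184, adjusted p = 0.0515), with -0.69 within HFD mice, -0.81 within LFD mice and -0.74 without the 2 farthest mice. In the gastrocnemius this relation did not pass, with r = -0.35 (permutation p = 0.144, adjusted p = 0.368), and -0.24 without 2 mice. Its rho was -0.35 (permutation p = 0.143, adjusted p = 0.365). Other members also ran against the slow-fiber genes in the gastrocnemius, with no adjusted p under 0.05. The r was -0.57 for *Hspa1b* (permutation p = 0.0208, adjusted p = 0.164) and -0.53 for *Hspa13* (permutation p = 0.0234, adjusted p = 0.164). It was -0.52 for *Dnaja2* (permutation p = 0.0271, adjusted p = 0.169) and -0.41 for *Dnajb4* (permutation p = 0.0983, adjusted p = 0.291). For *Hspb3* it was 0.17 (permutation p = 0.476, adjusted p = 0.682). The part of fiber type and nerve content in the muscle difference of *Hsph1* was not tested.

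*Hspb7*, a small heat shock protein of heart and skeletal muscle also known as cvHsp, ran in the other direction. Its signal intensity had a lowest, median and highest value of 1593, 1788 and 2802 in gastrocnemius HFD, against 651, 1099.95 and 1893 in quadriceps HFD. In LFD mice the values were 966, 1384 and 2256 in the gastrocnemius, against 710.5, 876 and 1929 in the quadriceps. The groups overlapped, and *Hspb7* was higher in the gastrocnemius in 9 of 10 HFD mice and 10 of 10 LFD mice. The exception was mouse 149, where the ratio was 0.940. The log2 fold change was 0.86 (SE 0.16, FDR 0.00176) in HFD mice, a 1.81-fold difference with a 95% interval of 1.43 to 2.29. In LFD mice it was 0.52 (SE 0.17, FDR 0.0897), a 1.43-fold difference that was not called, with an interval of 1.11 to 1.84. With the mouse as a fixed or a random block *Hspb7* was called in LFD mice as well (FDR 0.00443 and 0.00998). The difference between these effects, tested as the diet by muscle interaction, was 0.34 on the log2 scale (FDR 0.9998) and is therefore not shown. *Hspb7* did not pass the test against the slow-fiber genes in either muscle, with r = -0.15 in the gastrocnemius (permutation p = 0.570, adjusted p = 0.710, 0.09 without 2 mice) and r = 0.38 in the quadriceps (permutation p = 0.109, adjusted p = 0.291), and rho of -0.13 (permutation p = 0.592, adjusted p = 0.749) and 0.30 (permutation p = 0.211, adjusted p = 0.454).

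**Figure D2:**
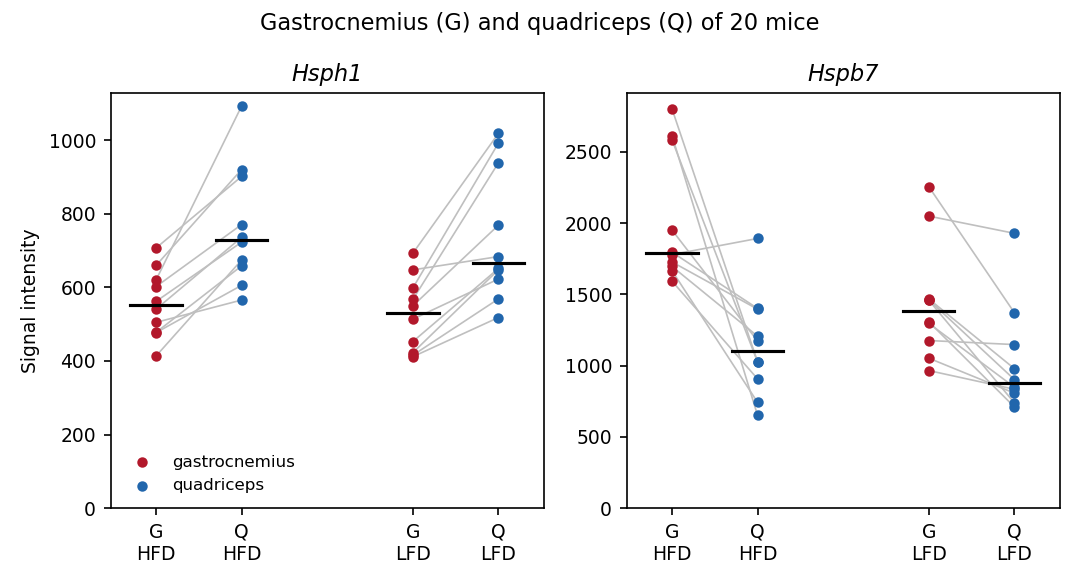
Signal intensity (y axis) of *Hsph1* and *Hspb7* in the gastrocnemius (G, red) and quadriceps (Q, blue) of 10 HFD and 10 LFD mice. Grey lines join both muscles of a mouse and black bars are medians. For *Hsph1* every line runs up to the quadriceps, whereas for *Hspb7* all but that of mouse 149 run down.

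The other tested small heat shock proteins showed differences below the fold limit or none. *Hspb9* (mean intensity 3.37) was not tested, and *Hspb1* was not among the named probe sets. *Hspb3*, a muscle-specific partner of *Hspb2*, had values of 616, 708 and 799.7 (lowest, median and highest) in gastrocnemius HFD, against 612, 803 and 929 in quadriceps HFD. In LFD mice it had 623, 711 and 758 in the gastrocnemius, against 714, 821 and 889.6 in the quadriceps. It passed the FDR in LFD mice at a log2 fold change of -0.21 (SE 0.05, FDR 0.00868), which is 1.15-fold lower in the gastrocnemius, and in HFD mice the value was -0.15 (FDR 0.215). *Hspb6* (Hsp20), which is phosphorylated in response to cyclic nucleotides and relaxes smooth muscle, had group medians of 8446.5 in gastrocnemius HFD, 7739 in quadriceps HFD, 7899.6 in gastrocnemius LFD and 7986 in quadriceps LFD. Its log2 fold change between the muscles was 0.09 in HFD mice and 0.01 in LFD mice. *Hspb8* (Hsp22), which works with the cochaperone Bag3 in the removal of damaged sarcomere proteins, differed by -0.03 and -0.004 on the same scale, with medians between 2277 and 2317 in all 4 groups.

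Of the 4 tested cytosolic Hsp70 genes none was called. *Hspa8* (Hsc70), the constitutive Hsp70 of the cytosol, had medians of 17165 in gastrocnemius HFD, 18780.5 in quadriceps HFD, 16697 in gastrocnemius LFD and 18132.5 in quadriceps LFD. Its log2 fold change between the muscles was -0.10 in both diets (FDR 0.379 in HFD and 0.255 in LFD mice). The inducible Hsp70 genes *Hspa1a* and *Hspa1b* varied far more between mice. They lie next to each other and encode nearly the same protein, so that probes of one may bind mRNA of the other and their values are not independent. *Hspa1b* had values of 114, 164 and 298 in gastrocnemius HFD, against 63.1, 254 and 592.5 in quadriceps HFD, and of 46.1, 119 and 322 in gastrocnemius LFD, against 51.5, 137 and 975 in quadriceps LFD. The quadriceps of LFD mice thus ranged from values near the lowest of the series to the highest, which were reached by mice 155 (975) and 156 (969.8). The SD of *Hspa1b* within groups was 1.07 on the log2 scale, which placed it at rank 26 of 6479 tested probe sets, and that of *Hspa1a* was 0.94 at rank 31. The median SD was 0.19 for both the members and all tested probe sets. The log2 fold change between the muscles was -0.43 in HFD mice (FDR 0.576) and -0.62 in LFD mice (FDR 0.602) for *Hspa1b*. This fit, which does not pair the muscles, did not detect a difference of this size against the spread between mice. Within a mouse *Hspa1b* was lower in the gastrocnemius in 8 of 10 mice of each diet, with a median ratio of 0.71. With the mouse as a block it was not called in either diet. Without the quadriceps arrays of high neutrophil markers the value of *Hspa1b* in HFD mice was 0.07 (FDR 0.963). *Hspbp1*, a nucleotide exchange factor of Hsp70, differed by -0.05 in HFD mice (FDR 0.783) and by 0.09 in LFD mice (FDR 0.586).

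*Hspa1a*, *Hspa1b* and *Hsph1* were also compared between the muscles of a mouse. In HFD mice the values of gastrocnemius and quadriceps of the same animal correlated with r = 0.67 for *Hspa1a* (permutation p = 0.0322, adjusted p = 0.853, rho = 0.68, permutation p = 0.0351, adjusted p = 0.858), r = 0.72 for *Hspa1b* (permutation p = 0.0199, adjusted p = 0.757, rho = 0.78, permutation p = 0.0105, adjusted p = 0.672) and r = 0.77 for *Hsph1* (permutation p = 0.00969, adjusted p = 0.627, rho = 0.83, permutation p = 0.00470, adjusted p = 0.499). Without the 2 mice farthest from the median these were 0.81, 0.68 and 0.85. In LFD mice the values were r = 0.89 (permutation p = 0.00074, adjusted p = 0.0825), 0.88 (permutation p = 0.00089, adjusted p = 0.0830) and 0.80 (permutation p = 0.00717, adjusted p = 0.145), with rho of 0.72 (permutation p = 0.0233, adjusted p = 0.275), 0.87 (permutation p = 0.00211, adjusted p = 0.188) and 0.89 (permutation p = 0.00107, adjusted p = 0.178). Without 2 mice they were 0.88, 0.85 and 0.66. No member passed the adjustment over all 6479 probe sets in either diet. In LFD mice the median r between the muscles was 0.58 over the members (40 of 44 above 0) and 0.39 over all tested probe sets (83.7% above 0). In HFD mice the medians were 0.02 (22 of 44 above 0) and -0.01 (49.3% above 0), and *Hsph1*, *Hspa1b* and *Hspa1a* had the highest correlations of the 44 members there. In LFD mice the 2 mice farthest from the median were also left out for other members. The r of *Hspb7* then went from 0.70 to -0.02 and that of *Dnajb4* from 0.63 to 0.10. That of *Hspa5* went from 0.89 to 0.66. In mice 155 and 156, highest in the quadriceps, *Hspa1b* had reached 322 and 235 in the gastrocnemius. The neutrophil markers of the quadriceps summed to 2351 in mouse 155 and to 39.3 in mouse 156. The part of neutrophils in the spread of *Hspa1b* between mice was not tested.

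**Figure D3:**
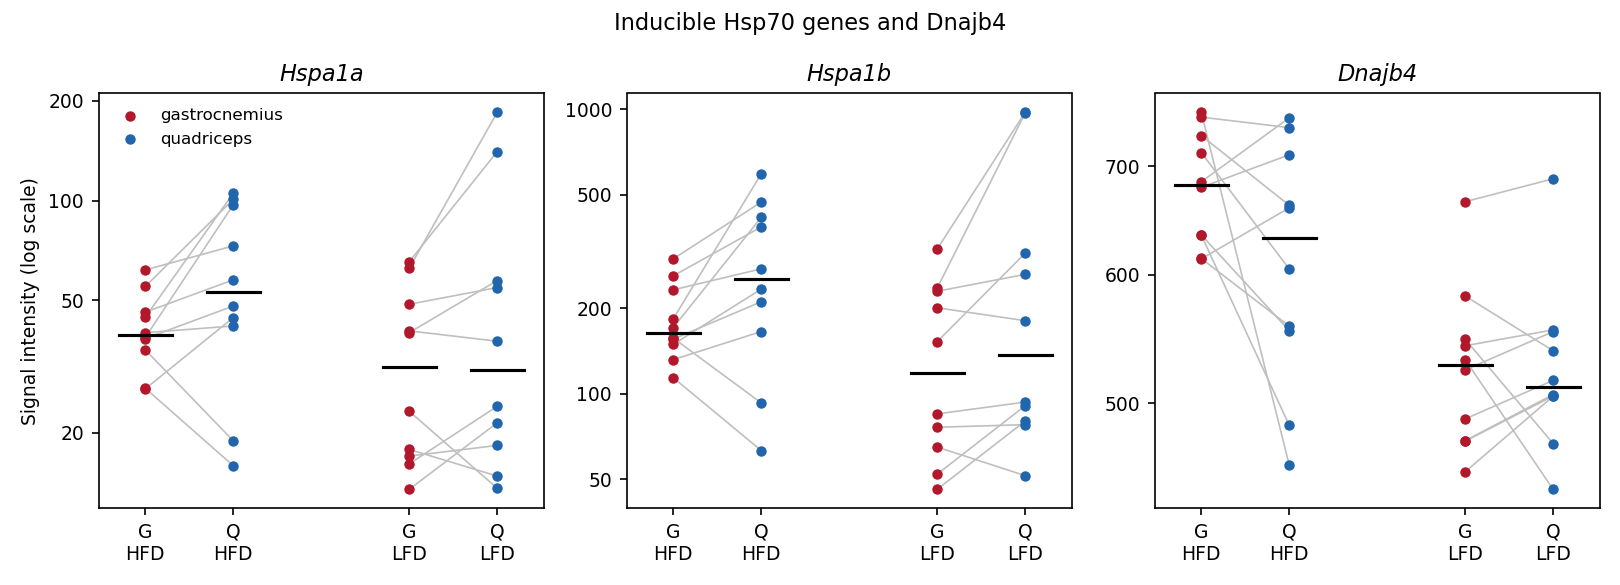
Signal intensity (y axis, log scale) of *Hspa1a*, *Hspa1b* and *Dnajb4* in the gastrocnemius (G, red) and quadriceps (Q, blue) of 10 HFD and 10 LFD mice, with lines joining both muscles of a mouse and black bars for medians. The Hsp70 genes spread widely between mice and reach 184 (*Hspa1a*) and 975 (*Hspa1b*) in quadriceps LFD, whereas for *Dnajb4* most gastrocnemius HFD arrays lie above the gastrocnemius LFD arrays.

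Likeness within a muscle was measured next. *Hsph1* was compared with the other 6478 tested probe sets over the 20 mice, as deviations from the mean of each diet. In the gastrocnemius no probe set passed an adjusted p of 0.05, and there the Hsp90 adaptor gene *Stip1* (Hop) ranked 10 (r = 0.73, permutation p = 0.00078, adjusted p = 0.171), *Hspa1a* 20 (r = 0.71, permutation p = 0.00138, adjusted p = 0.213) and *Hspa1b* 38 (r = 0.64, permutation p = 0.00543, adjusted p = 0.342), with rho of 0.76 (permutation p = 0.00019, adjusted p = 0.118), 0.71 (permutation p = 0.00138, adjusted p = 0.225) and 0.65 (permutation p = 0.00411, adjusted p = 0.337). *Ahsa2*, a cochaperone gene related to the Hsp90 activator Aha1, had r = 0.55 there (permutation p = 0.0122, adjusted p = 0.451, rho = 0.56, permutation p = 0.0116, adjusted p = 0.465). In the quadriceps 9 probe sets (0.139%) passed it. The gene most like it was *Ahsa2* (r = 0.86, permutation p = 1.0e-05, the smallest these permutations can give, adjusted p = 0.0162, rho = 0.87, permutation p = 1.0e-05, adjusted p = 0.0324). *Hspa1a* ranked 2 (r = 0.82, permutation p = 2.0e-05, adjusted p = 0.0185, rho = 0.84, permutation p = 2.0e-05, adjusted p = 0.0432) and *Hspa1b* ranked 3 (r = 0.80, permutation p = 4.0e-05, adjusted p = 0.0324, rho = 0.81, permutation p = 5.0e-05, adjusted p = 0.0540). These 3 correlations were 0.82, 0.73 and 0.73 within HFD mice, 0.89, 0.88 and 0.86 within LFD mice, and 0.79, 0.85 and 0.82 without the 2 mice with the most extreme *Hsph1*. The DnaJ gene *Dnaja1*, whose protein is a cytosolic partner of Hsc70, ranked 20 (r = 0.72, permutation p = 0.00045, adjusted p = 0.0846, rho = 0.66, permutation p = 0.00267, adjusted p = 0.222). *Stip1* ranked 6 (r = 0.78, permutation p = 0.00011, adjusted p = 0.0518, rho = 0.72, permutation p = 0.00081, adjusted p = 0.164).

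**Figure D4:**
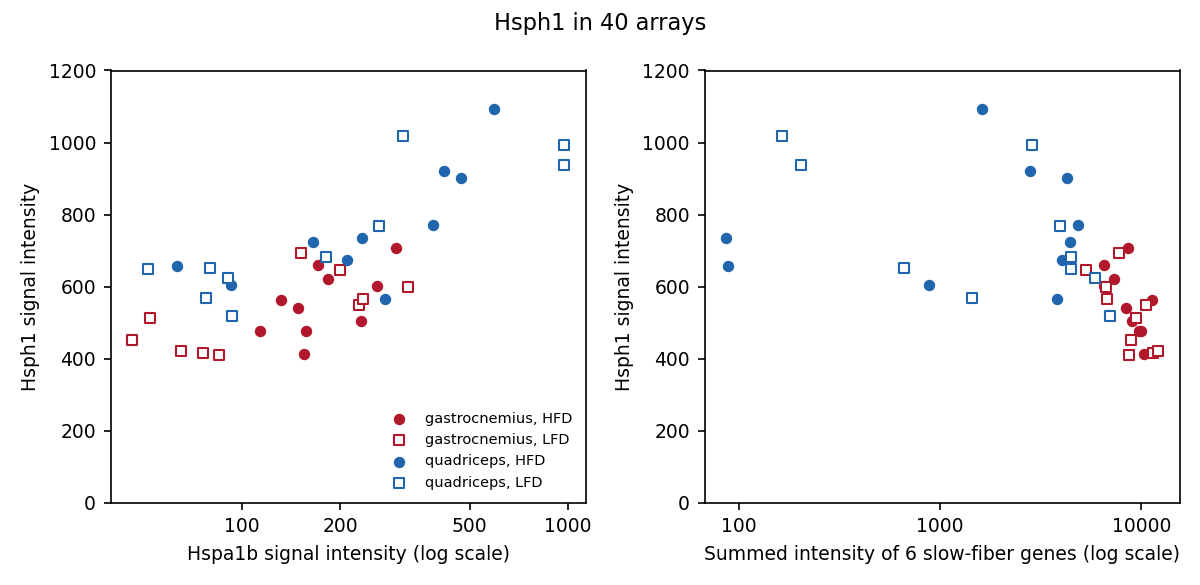
Signal intensity of *Hsph1* (y axes) on 40 arrays against that of *Hspa1b* (left, log scale) and against the summed signal intensity of 6 slow-fiber genes (right, log scale), for gastrocnemius (red) and quadriceps (blue) of HFD (filled) and LFD (open) mice. *Hsph1* tends to be higher where *Hspa1b* is higher. For log2 deviations from the mean of each diet, r was 0.80 within the quadriceps, and the lower r within the gastrocnemius did not pass the adjusted p. The gastrocnemius arrays lie at the right-hand end of the slow-fiber axis, where *Hsph1* ranges from 412 to 707.

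*Hspb7* was compared in the same way. Against it 335 of 6478 probe sets (5.17%) passed the adjusted p of 0.05 over the gastrocnemius, and 441 (6.81%) over the quadriceps. The DnaJ gene *Dnaja4*, which is abundant in heart and muscle, ranked 32 in the gastrocnemius (r = 0.72, permutation p = 0.00091, adjusted p = 0.0355, rho = 0.68, permutation p = 0.00193, adjusted p = 0.0593) and 4 in the quadriceps (r = 0.81, permutation p = 4.0e-05, adjusted p = 0.0191, rho = 0.75, permutation p = 0.00045, adjusted p = 0.0747). Without the 2 mice with the most extreme *Hspb7* these values were 0.53 and 0.72. *Flnc*, which encodes the actin crosslinker filamin C of the Z disc and was added outside the rule for named genes, ranked 10 in the gastrocnemius (r = 0.78, permutation p = 3.0e-05, adjusted p = 0.0275, rho = 0.94, permutation p = 1.0e-05, adjusted p = 0.0144) and 2 in the quadriceps (r = 0.88, permutation p = 1.0e-05, adjusted p = 0.0130, rho = 0.81, permutation p = 8.0e-05, adjusted p = 0.0432). In the gastrocnemius r was 0.77 within HFD mice, 0.82 within LFD mice and 0.70 without the 2 farthest mice, and in the quadriceps it was 0.82, 0.95 and 0.76. In gastrocnemius HFD *Hspb7* was highest in mice 144 (2802), 151 (2615) and 146 (2585), against 1952 in the next, mouse 150. *Dnajc7* was also highest on these arrays (581, 664 and 577), against 455 in the next, mouse 158. In gastrocnemius LFD *Hspb7* was highest in mouse 148 (2256), where *Dnajc7* was 367, against 585 in mouse 156. Mouse 141 was next for both genes there (2050 and 542). In quadriceps LFD *Hspb7* was highest in mouse 141 (1929), where *Dnajc7* was 608, against at most 611 in that group. In quadriceps HFD it was highest in mouse 149 (1893), where *Dnajc7* was 517, against at most 595. The part of such shared array differences in these relations was not tested. Against *Hspb7*, *Hsph1* had r = 0.11 in the gastrocnemius (permutation p = 0.659, adjusted p = 0.803) and 0.04 in the quadriceps (permutation p = 0.883, adjusted p = 0.934), and rho of 0.07 in both (permutation p = 0.774, adjusted p = 0.878, and permutation p = 0.781, adjusted p = 0.887).

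The promoters of the members were searched for the heat shock element, the site that Hsf1 is known to bind. It is built of inverted repeats of the unit GAA, here written as GAANNTTC or TTCNNGAA. Each of these reads the same on both strands, and both overlap where 3 units stand in a row. RefSeq promoter windows (GRCm38.p6, 300 bases, 250 before and 50 after the start site) were found for 54 of the 66 members. At least 1 such element stood in 16 of their 70 windows (22.9%), against 15.1% of all 32851 windows. By genes, these were 14 of the 54 members, and 12 of the 36 tested members with a window. Besides the members printed below they included *Hspb3*, *Hspb6*, *Hspb8*, *Dnajc10*, *Dnajc27*, *Dnajb6* and *Dnajc5g*. The windows of *Dnajb1* held none, and those of *Ahsa2* and *Stip1* were not looked up. A 3-unit element stood in 5 of the 70 windows (7.14%), against 0.603% of all windows. These windows belonged to 3 of the 54 members, *Hsph1*, *Hspe1* and *Dnajb6*. The windows of *Hsph1* overlap and hold the same sites, as do those of *Dnajb6*, so these sites are counted more than once. A match describes letters and is not evidence of binding. The last 150 bases before the start site are given below for *Hsph1*, and for *Hspa1b*, *Hspa1a* and *Dnaja1*, named in its relations above. They are also given for the cytosolic DnaJ genes *Dnaja4* and *Dnajb4*, described next, and for *Hspe1*, which has the longest run of units. All were chosen among the members with an element. Bases of an element are in capitals.
*Hsph1* (chr5:149636316-149636465, minus strand): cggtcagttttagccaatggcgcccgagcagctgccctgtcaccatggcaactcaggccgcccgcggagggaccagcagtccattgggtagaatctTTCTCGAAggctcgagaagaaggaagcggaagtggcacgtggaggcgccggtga
*Hspa1b* (chr17:34959239-34959388, minus strand): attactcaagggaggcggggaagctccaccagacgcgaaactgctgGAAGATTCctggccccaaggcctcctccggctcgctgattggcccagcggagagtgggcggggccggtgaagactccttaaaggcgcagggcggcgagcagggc
*Hspa1a* (chr17:34972157-34972306, minus strand): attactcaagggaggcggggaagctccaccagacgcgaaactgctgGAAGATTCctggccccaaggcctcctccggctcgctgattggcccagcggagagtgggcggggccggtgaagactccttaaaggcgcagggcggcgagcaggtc
*Dnaja1* (chr4:40722318-40722467, plus strand): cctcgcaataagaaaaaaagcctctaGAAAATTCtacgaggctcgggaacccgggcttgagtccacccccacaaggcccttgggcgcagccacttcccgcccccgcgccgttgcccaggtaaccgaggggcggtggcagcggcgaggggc
*Dnaja4* (chr9:54699409-54699558, plus strand): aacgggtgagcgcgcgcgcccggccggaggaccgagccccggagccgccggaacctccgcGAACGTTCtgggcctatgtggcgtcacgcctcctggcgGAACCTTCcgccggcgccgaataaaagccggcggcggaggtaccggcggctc
*Dnajb4* (chr3:152193846-152193995, minus strand): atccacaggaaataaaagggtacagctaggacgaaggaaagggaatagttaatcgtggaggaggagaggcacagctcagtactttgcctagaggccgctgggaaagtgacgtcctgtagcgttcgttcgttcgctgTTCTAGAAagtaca
*Hspe1* (chr1:55087998-55088147, plus strand): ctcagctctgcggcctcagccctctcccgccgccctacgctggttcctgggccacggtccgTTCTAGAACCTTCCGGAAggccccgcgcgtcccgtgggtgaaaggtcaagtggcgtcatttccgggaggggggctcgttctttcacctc

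The stretches of *Hspa1a* and *Hspa1b* are identical at 149 of 150 bases and hold the same element, whose first base lies at -104 when the start site is counted as 0. For the start site of *Hsph1* used here an element begins at -54, and a 3-unit element follows the start site, with its 2 overlapping parts beginning at 15 and 20. For the start sites used here *Dnaja1* has 1 element at -124, *Dnajb4* 1 at -14 and *Dnaja4* a pair at -90 and -52. *Dnaja1*, *Dnajb4* and *Dnaja4* also have windows at other start sites, and those hold no element. *Hspe1*, which encodes the mitochondrial cochaperonin Hsp10, has overlapping elements at -89, -84 and -79, and its log2 fold change between the muscles was -0.12 in HFD mice (FDR 0.614) and -0.15 in LFD mice (FDR 0.212). No element was found in the window of *Hspb7*.

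Among the 7 tested cytosolic DnaJA and DnaJB genes none was called between the muscles. *Dnaja2*, which supports refolding by Hsc70, passed the FDR in HFD mice at a small difference. It had values of 1201, 1259 and 1335 in gastrocnemius HFD, against 1321, 1355 and 1464 in quadriceps HFD, and its log2 fold change was -0.13 (SE 0.03, FDR 0.0254), that is, 1.09-fold lower in the gastrocnemius. In LFD mice it had 1168, 1253 and 1295 in the gastrocnemius, against 1259, 1355 and 1406 in the quadriceps, with a log2 fold change of -0.11 (FDR 0.0676). It was lower in the gastrocnemius of 18 of 20 mice. *Dnaja1* was lower in 16 of 20 mice, with log2 fold changes of -0.30 (FDR 0.0891) in HFD mice and -0.14 (FDR 0.524) in LFD mice. *Dnajb1*, the heat-inducible Hsp40, differed by 0.06 in HFD mice (FDR 0.894) and by -0.16 in LFD mice (FDR 0.574), with group medians between 46.7 and 48.5.

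None of the 6 tested mitochondrial and 8 tested endoplasmic reticulum genes was called. *Hspa9* (mortalin), the Hsp70 of the mitochondrial import motor, had medians of 1461 in gastrocnemius HFD, 1403 in quadriceps HFD, 1384 in gastrocnemius LFD and 1479 in quadriceps LFD. *Hspa5* (BiP), the Hsp70 of the endoplasmic reticulum, had 1526, 1454, 1395 and 1398 in the same order of groups. The log2 fold changes between the muscles were 0.07 and -0.09 for *Hspa9* and 0.12 and 0.01 for *Hspa5* in HFD and LFD mice, and none passed the FDR. *Dnajb9* (ERdj4), which is induced by unfolded proteins in the endoplasmic reticulum, differed by -0.10 and -0.03, and *Dnajc15*, a J protein of the inner mitochondrial membrane, by -0.08 and 0.03. *Hspa13* (Stch), a microsomal relative of Hsp70, had values of 22.7, 27.1 and 32.4 in gastrocnemius HFD, against 20.9, 30.7 and 34.3 in quadriceps HFD, and of 19.2, 25.1 and 29.8 in gastrocnemius LFD, against 25.2, 30.5 and 39.9 in quadriceps LFD. It passed the FDR in LFD mice (log2 fold change -0.32, SE 0.08, FDR 0.0267) and was lower in the gastrocnemius of all 10 LFD mice, but its fold change stayed under 1.3. *Dnajc28*, also a dim gene, had medians of 25.5 in gastrocnemius HFD, 21.8 in quadriceps HFD, 19.0 in gastrocnemius LFD and 27.6 in quadriceps LFD. Its log2 fold change was 0.02 in HFD mice (FDR 0.989) and -0.68 in LFD mice (FDR 0.173), and only in LFD mice did the mouse block bring a call (FDR 0.0208). Of the 10 tested remaining DnaJC genes none was called, and their log2 fold changes lay between -0.06 and 0.18 in HFD mice and between -0.13 and 0.09 in LFD mice. In this class *Dnajc7*, a J protein with tetratricopeptide repeats that binds both Hsp70 and Hsp90, differed by 0.18 and -0.08, *Dnajc21*, needed for ribosome maturation, by 0.09 in both diets, and *Dnajc27*, a Rab-like GTPase with a J domain, by -0.06 and -0.13.

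The second question was whether 8 weeks of HFD changed the chaperones within a muscle. No member was called in the gastrocnemius, where 0.216% of all tested probe sets were, or in the quadriceps, where the share was 0.0617%. By the FDR alone 1 member passed in the gastrocnemius and none in the quadriceps, against 0.679% and 0.185% of all tested probe sets. In the gastrocnemius 5 members had an unadjusted p under 0.05 and in the quadriceps 2, against 581 (8.97%) and 368 (5.68%) of the 6479 tested probe sets, so both counts were near the background. For the members the median log2 fold change between the diets stood at 0.02 in the gastrocnemius and at -0.01 in the quadriceps, against -0.02 and -0.01 over all tested probe sets. The member nearest to a call was *Dnajb4*, a cytosolic J protein that in muscle takes part in the quality control of sarcomere proteins. It had values of 614, 682 and 756 in gastrocnemius HFD, against 454, 528 and 666 in gastrocnemius LFD. The HFD values thus lay mostly above the LFD values, and all 10 exceeded the LFD median. The log2 fold change was 0.37 (SE 0.08, FDR 0.0129), which is 1.29-fold with a 95% interval of 1.16 to 1.45 and so fell just short of the fold limit of 1.3. In the quadriceps *Dnajb4* had 458, 632.5 and 749.8 in HFD mice, against 443, 511 and 688 in LFD mice, with a log2 fold change of 0.22 (SE 0.08, FDR 0.643). Its interaction of diet and muscle was 0.15 (FDR 0.9998), so a difference between the muscles in this respect is not shown.

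*Dnaja4* had values of 417, 494 and 562 in gastrocnemius HFD, against 323, 363 and 503 in gastrocnemius LFD, with a log2 fold change of 0.35 (FDR 0.123). In the quadriceps it was 0.16 (FDR 0.998). *Hspb7* differed by 0.50 in the gastrocnemius (FDR 0.243) and by 0.16 in the quadriceps (FDR 0.998) between HFD and LFD mice. *Hsph1* differed by 0.08 and 0.06. *Hspa1b* differed by 0.58 in the gastrocnemius (FDR 0.825) and by 0.39 in the quadriceps (FDR 0.998), with the wide spread given above. The interaction of diet and muscle passed the FDR for none of the 44 members and for none of the 6479 probe sets in limma, at an unadjusted p under 0.05 for 1 member (*Hspa9*, 0.15 on the log2 scale) and 118 probe sets.

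Partners of these chaperones that lie outside the rule were examined as lists. Of 13 tested genes of Hsp90 and its cochaperones, 1 was called as lower in the gastrocnemius in each diet and none as higher. This was *Ahsa2*, with medians of 115 in gastrocnemius HFD, 170 in quadriceps HFD, 115 in gastrocnemius LFD and 155 in quadriceps LFD, and log2 fold changes of -0.72 (SE 0.16, FDR 0.00771) in HFD mice and -0.53 (SE 0.13, FDR 0.0177) in LFD mice. *Unc45b*, the muscle chaperone that folds the myosin head together with Hsp90, passed the FDR in both diets at smaller differences. Its log2 fold changes were -0.34 (SE 0.06, FDR 0.000492) in HFD mice and -0.28 (SE 0.04, FDR 0.000398) in LFD mice. The median log2 fold change of this list was -0.08 in HFD mice and -0.09 in LFD mice, against -0.02 and -0.01 over all tested probe sets. None of the tested genes was called among 2 heat shock factors, 8 BAG and other exchange factors, 1 alpha crystallin and 7 subunits of the chaperonin CCT. Of CCT, *Cct5* passed the FDR in HFD mice (log2 fold change -0.12, SE 0.04, FDR 0.0455). In the unfolded protein response of the endoplasmic reticulum, 1 of 11 tested genes was called in HFD mice and none in LFD mice. It was *Ddit3* (Chop), the transcription factor induced late in this response, with log2 fold changes of 0.49 (SE 0.12, FDR 0.0154) in HFD mice and 0.28 (SE 0.08, FDR 0.0286) in LFD mice. No gene of these lists was called between the diets in either muscle, and the value nearest to the threshold was that of *Cryab*, the alpha crystallin of muscle, in the gastrocnemius (0.22, FDR 0.0505).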

How the data were processed

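RNA of 40 muscle samples was hybridised by the authors to Affymetrix Mouse Genome 430 2.0 arrays. Per the study's methods, the authors grouped probes by Entrez gene, normalized the arrays by quantiles and estimated expression with GCRMA. The deposited values are signal intensity on a linear scale, used as deposited. Of 16539 probe sets, 64 controls were left out, 16229 were named through RefSeq, 28 through the platform table only and 218 not at all. Array medians were 8.8 to 9.4 and 38.4% to 39.5% of probe sets exceeded 20 on each array. The labels' extraction text names only the quadriceps, so the muscle was taken from the sample's own labels. Intensities carry no depth, so precision rests on how many arrays there were.

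Log2 values of the 6479 probe sets with a mean intensity over 20 were fitted with limma 3.58.1 in R 4.3.3, with Benjamini-Hochberg adjustment. Both muscles were compared within each diet (20 arrays), and the diets and the interaction in 1 fit of 40 arrays. Correlations used 100000 two-sided permutations (NumPy 2.4.6), within diets where both were pooled. The scripts were tested on simulated data. Muscles were paired by the mouse number in the labels, which name it as the subject. In HFD mice a correlation over all tested probe sets did not bear this out. Deviations from the group mean over the tested probe sets were correlated between the muscles of a mouse. The median was -0.07 in HFD mice (-0.21 to 0.43) and 0.39 in LFD mice (-0.07 to 0.63). Between different mice it was -0.01 (-0.48 to 0.59) and -0.05 (-0.44 to 0.60). Some pairs of different HFD mice thus correlated more than any pair of 1 HFD mouse, so this measure does not settle the pairing. The mouse block was an alternative, with other filters, offsets, normalizations, weights, thresholds and left-out mice.

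The members, roles and lists were chosen with earlier results of these data known. Named members were those past an FDR of 0.05 in any comparison, *Hsph1* and *Hspb7*, which the study's supplements list, and in each role class the 2 with the highest mean intensity and the 1 with the largest muscle difference in LFD mice. *Hspa1a*, *Hspe1*, *Dnaja1* and *Dnaja4*, and *Flnc* outside the rule, were added after their values were seen.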

Additional observations from a re-analysis of the deposited data

Results flagged for a closer look

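The signal intensities of the 20 members named by the rule were examined in all 4 groups of 10 arrays for a single array that lies apart, by Dixon's gap to the nearest array over the range (past its 95% limit). Of 80 groups 5 held such an array, and chance gives about 1 in 20. All lay in LFD mice. *Dnajb1* was 24.2 in the gastrocnemius of mouse 141, against 41.6 to 56.4 in the others, and 81.2 in the quadriceps of mouse 155, against 37.9 to 55.0. *Dnajb4* reached 687.7 in the quadriceps of mouse 148, against 442.6 to 555.0 in the others. *Hspb6* reached 9509 in the gastrocnemius of the same mouse 148, against 7658 to 8364. *Hspa5* reached 1782 in the quadriceps of mouse 142, against 1268 to 1527.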

How the results depend on the processing

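The count of members called between the muscles in HFD mice was 2. It became 1 with a fold change over 1.5 and 1 without the arrays of high neutrophil markers, with *Hspb7* called in both. It was 2 without any single mouse, and 3 with a signal filter of 10 or none, which let in *Hspa4l*. In LFD mice the count was 1. It was 3 with the FDR alone (*Hspa13*, *Hspb3* and *Hsph1*) and 3 with array weights (*Hspa13*, *Hspb7* and *Hsph1*), and 0 with a fold change over 1.5, with no signal filter, with adjustment over all probe sets and without the arrays of high neutrophil markers. With each mouse left out in turn it was 0 to 2. With the mouse as a fixed or a random replicate block it was 3, adding *Dnajc28* and *Hspb7* to *Hsph1*, and the block changed no other call. Between the diets in the gastrocnemius the count of 0 became 1 with the FDR alone and 1 with median centred arrays (*Dnajb4* in both), 2 with array weights (*Dnaja4* and *Dnajb4*), and 0 to 1 with a mouse left out, *Dnajb4* being called without mouse 143, 146, 148, 156, 157 or 158 and *Dnaja4* without mouse 141. In the quadriceps and for the interaction the counts stayed at 0 in every setting run, also without any single mouse (0 to 0). Over the log2 fold changes of single members under these settings, 951 kept their side of the threshold, 11 were no longer called, 17 became called and 1 changed sign. The last was *Hspa1b* between the muscles in HFD mice, at 0.072 without the arrays of high neutrophil markers. The causes were not tested, other than that fewer arrays entered where some were left out. The dimmest tested genes averaged just above 20, where the signal over background limits what can be seen.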
